A study of Homo sapiens with 5 samples.

Results

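The genes described here are 37 genes of the cellular response to low oxygen and of glycolysis, followed in MDA-MB-231 cells that had received the statin fluvastatin. They were chosen by name, with earlier results of these data known, as were the further gene lists described below. For each gene 1 probe was used, the brightest among those detected (p under 0.05) on 2 or more independent arrays. This gave values for 35 of the 37 genes, among 12080 genes measured in all. CA9 and SLC16A3 were not analysed here. Of the 35, 33 were above background on every array. EGLN3 was above background on the fluvastatin arrays only, so it entered through the group in which it was higher, and PDK1 was not above background in control 3. No gene with a probe was lost to the filter.

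MDA-MB-231 is an established, estrogen receptor-negative basal line from a human breast cancer, and fluvastatin lowers cholesterol by blocking HMG-CoA reductase in the mevalonate pathway. The study asked how expression differs between treated and untreated malignant cells. Cultures in serum-containing medium received 10 µM fluvastatin for 24 h or sterile water for the same time, and the labels name no change in oxygen. Groups follow the sample titles, since the treatment text of the fluvastatin samples is that of the mock control. Of 3 deposited control columns, control 2 equalled the mean of controls 1 and 3 in each of 47231 probes (tolerance 1e-06), so 2 independent controls were compared with 2 fluvastatin arrays (n = 2 each throughout).

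Cells sense oxygen through prolyl hydroxylases of the EGLN family, which mark the alpha subunits HIF-1α and HIF-2α for destruction when oxygen is present. When the alpha subunits escape this, they pair with ARNT and bind DNA at short sites with the core letters ACGTG or GCGTG. Their targets raise glucose uptake and glycolysis, divert pyruvate from mitochondria, and act on vessels, matrix and mitochondrial turnover. Many tumour cells run glycolysis at a high rate even in oxygen, and some of these genes also answer to other signals.

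On each array 43.0% to 46.9% of probes were detected, and median intensities were 72.7 to 81.7. Before normalization the upper quartile of intensity was 163.2 and 136.4 in controls 1 and 3. It was 196.7 and 187.4 in fluvastatin 1 and 2, so both fluvastatin arrays were brighter there. Results under other scaling are given at the end. Across the 21986 probes kept, 0.337% differed by at least 2-fold between the controls and 2.77% between the fluvastatin arrays. As the label calls for, the 9 markers of mesenchymal basal lines (VIM, CD44, CAV1, CAV2, MSN, AXL, ANXA1, LGALS1 and FOSL1) were all detected. Of these FOSL1 alone had a change past the test, falling by 1.92 on the log2 scale. Of 9 luminal and epithelial markers, only ERBB3 passed the filter, at 5.70 and 5.99 in controls and 6.29 and 6.81 with fluvastatin (log2 fold change 0.71, adjusted p = 0.0868), and ESR1, PGR and FOXA1 did not. Of 10 leukocyte, endothelial and fibroblast markers, CD68, PECAM1 and COL1A1 passed it, none with a change past the test (PECAM1 1.19, adjusted p = 0.0735). The summed level of these 3 was 10.54 to 10.55 (log2) in controls and 10.77 to 11.25 with fluvastatin, higher in fluvastatin 2. The part of these markers in the results was not tested. The labels do not say whether replicates were separate cultures, so p-values measure the spread between these arrays, which may be technical.

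To show the letters discussed above, the 250 bases before the start of the gene are printed for the 4 genes with the smallest adjusted p that had an entry in the RefSeq promoter table (GRCh38.p14), and for ENO1 and LDHA, a paralog and a textbook target that did not pass the test. Capitals mark ACGTG or GCGTG on either strand (CACGT and CACGC when read on the printed strand). Where both strands match, the letters read CACGTG, which is also the site of other factors and was counted once per strand.
ANKRD37, chr4:185396591-185396840, plus strand: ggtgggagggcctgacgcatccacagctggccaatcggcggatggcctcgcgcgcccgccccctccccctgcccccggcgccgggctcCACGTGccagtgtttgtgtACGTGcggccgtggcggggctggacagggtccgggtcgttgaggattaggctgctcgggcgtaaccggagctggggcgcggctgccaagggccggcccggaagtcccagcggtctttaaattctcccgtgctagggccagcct
BHLHE40, chr3:4979187-4979436, plus strand: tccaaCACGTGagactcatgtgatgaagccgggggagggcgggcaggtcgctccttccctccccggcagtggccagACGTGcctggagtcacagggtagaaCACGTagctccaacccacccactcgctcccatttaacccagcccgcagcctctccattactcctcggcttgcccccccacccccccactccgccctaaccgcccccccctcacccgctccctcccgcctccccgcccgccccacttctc
PFKFB4, chr3:48556804-48557053, minus strand: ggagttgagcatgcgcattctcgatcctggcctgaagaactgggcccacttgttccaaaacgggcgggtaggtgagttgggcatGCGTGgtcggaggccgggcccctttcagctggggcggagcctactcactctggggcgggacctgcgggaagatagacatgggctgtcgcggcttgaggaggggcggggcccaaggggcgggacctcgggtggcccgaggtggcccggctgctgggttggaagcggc
ENO2, chr12:6914330-6914579, plus strand: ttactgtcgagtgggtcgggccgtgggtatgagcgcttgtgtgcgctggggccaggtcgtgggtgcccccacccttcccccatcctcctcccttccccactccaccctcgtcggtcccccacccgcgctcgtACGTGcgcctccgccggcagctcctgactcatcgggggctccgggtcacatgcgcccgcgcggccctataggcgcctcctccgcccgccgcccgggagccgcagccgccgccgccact
ENO1, chr1:8878687-8878936, minus strand: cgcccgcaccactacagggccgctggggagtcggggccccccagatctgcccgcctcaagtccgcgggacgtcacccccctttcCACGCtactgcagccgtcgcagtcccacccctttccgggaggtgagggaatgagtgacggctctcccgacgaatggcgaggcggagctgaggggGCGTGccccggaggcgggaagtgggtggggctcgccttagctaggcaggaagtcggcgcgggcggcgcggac
LDHA, chr11:18394313-18394562, plus strand: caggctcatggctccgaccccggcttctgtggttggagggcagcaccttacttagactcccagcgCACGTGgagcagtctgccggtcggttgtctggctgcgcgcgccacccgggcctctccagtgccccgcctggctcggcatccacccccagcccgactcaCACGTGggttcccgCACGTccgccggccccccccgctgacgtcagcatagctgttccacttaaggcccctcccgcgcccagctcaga

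Of the 35 genes measured, 31 had an entry in that table, and VEGFA, BNIP3L, NDRG1 and SLC2A3 did not. At least 1 match was found in 22 of the 31 windows (71.0%), beside 57.3% of the 9658 windows of genes measured on the arrays and 43.2% of all 35116 windows. At least 2 matches were found in 29.0% of the 31 windows, beside 28.9% of those of genes measured. At least 3 were found in 7 of the 31 (22.6%), beside 12.6% of those of genes measured. Of the 8 genes past the test with a window, 6 had a match, as did 16 of the 23 not past it. LDHA had 5 matches and ANKRD37 had 3. BNIP3 had the most matches, with 6, and PGK1 had 3. A match is a description of letters and not of a bound site.

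With fluvastatin 12 of the 35 genes rose, 0 fell and 23 did not pass the test (limma, adjusted p under 0.05 over all probes kept). The share that rose was 34.3%, beside 10.5% of all genes, in a list chosen with earlier results of these data known. None fell, beside 9.65% of all genes, and at an unadjusted p under 0.05 the counts were 19 higher (all genes 20.8%) and 0 lower (all genes 19.2%). The median log2 fold change of the 35 was 0.71, beside 0.01 for all 12080 genes. Both fluvastatin arrays lay above both controls for 27 of them (all genes 35.9%) and below both for 2 (all genes 33.7%). The count depends on single arrays: it was 3 without control 1 and 3 without control 3, the same genes both times (ANKRD37, NDRG1 and BHLHE40), 9 without fluvastatin 1 and 23 without fluvastatin 2. The share of all genes called higher moved with it, to 1.56%, 1.6%, 7.71% and 17.7% in the same order.

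The fluvastatin arrays differed in these genes. Fluvastatin 1 was the higher array for 32 of 35 genes, whereas over all genes it was the higher for 52.8%. It was also the higher for 23 of 30 other HIF targets and for 73 of all 113 other pathway genes described below. It was higher by at least 0.5 on the log2 scale for 17 of the 35 (all genes 9.45%), and fluvastatin 2 exceeded it by as much for 0. The median difference from the control mean was 0.93 in fluvastatin 1 and 0.37 in fluvastatin 2. At least 2-fold rises over the control mean were seen in 16 genes in fluvastatin 1 (all genes 7.69%) and in 6 in fluvastatin 2 (all genes 4.91%), and the 6 were among the 16 (both arrays, all genes 3.73%). The controls, in contrast, lay close together, with a median absolute difference of 0.06 in these genes and 0.11 over all genes. A test of the gap between 2 single arrays is not possible, and which array stands nearer to the typical response cannot be told from these data.

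**Figure D1:**
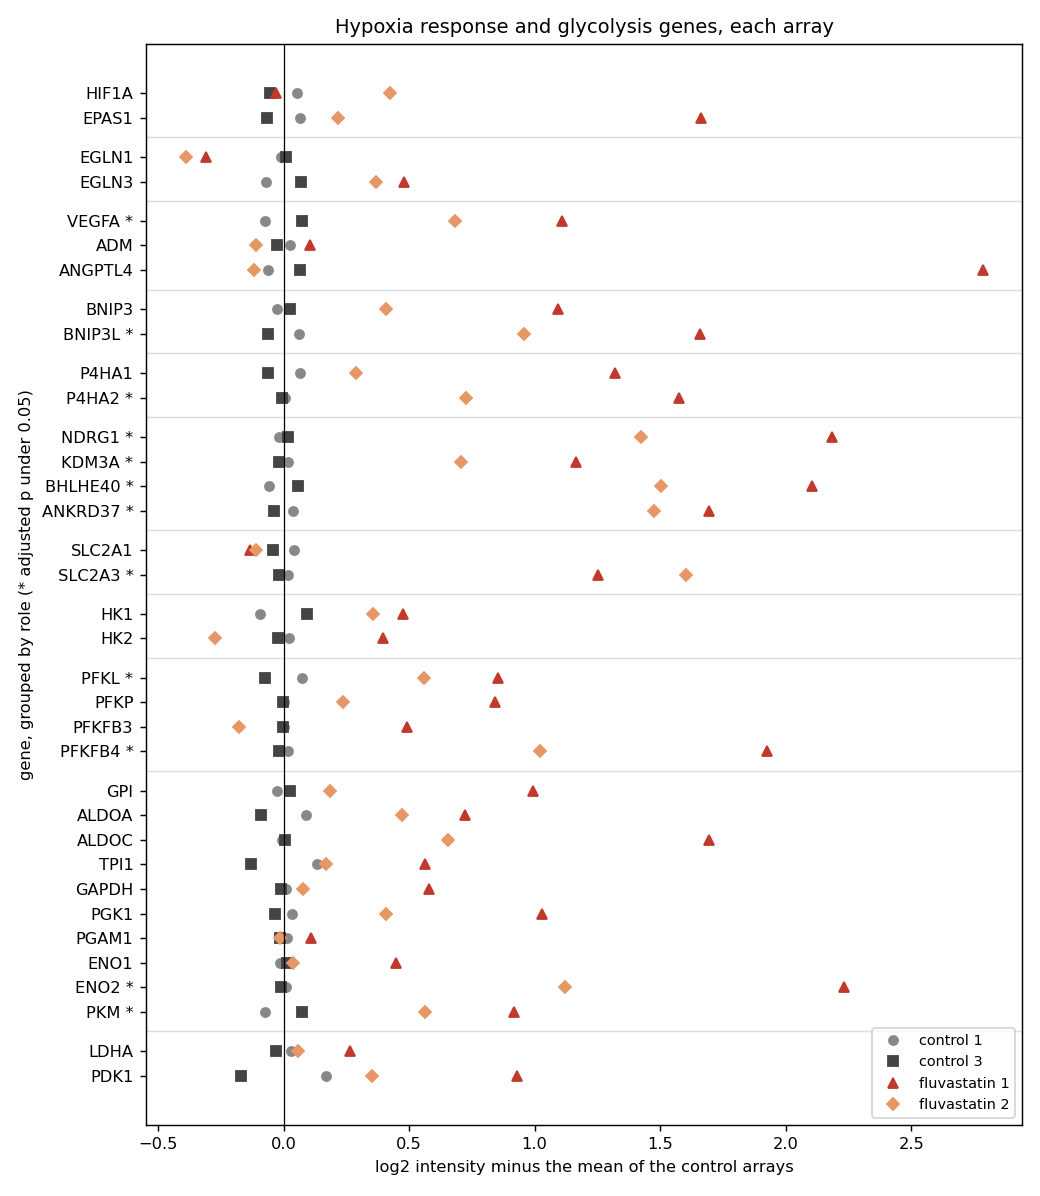
Log2 intensity of each of the 35 genes minus the mean of the control arrays (x axis), by gene and role (y axis), with 1 point per array and a star for an adjusted p under 0.05. The controls are centred on 0 by construction. Fluvastatin 1 lies to the right of fluvastatin 2 in 32 of 35 rows.

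**Figure D2:**
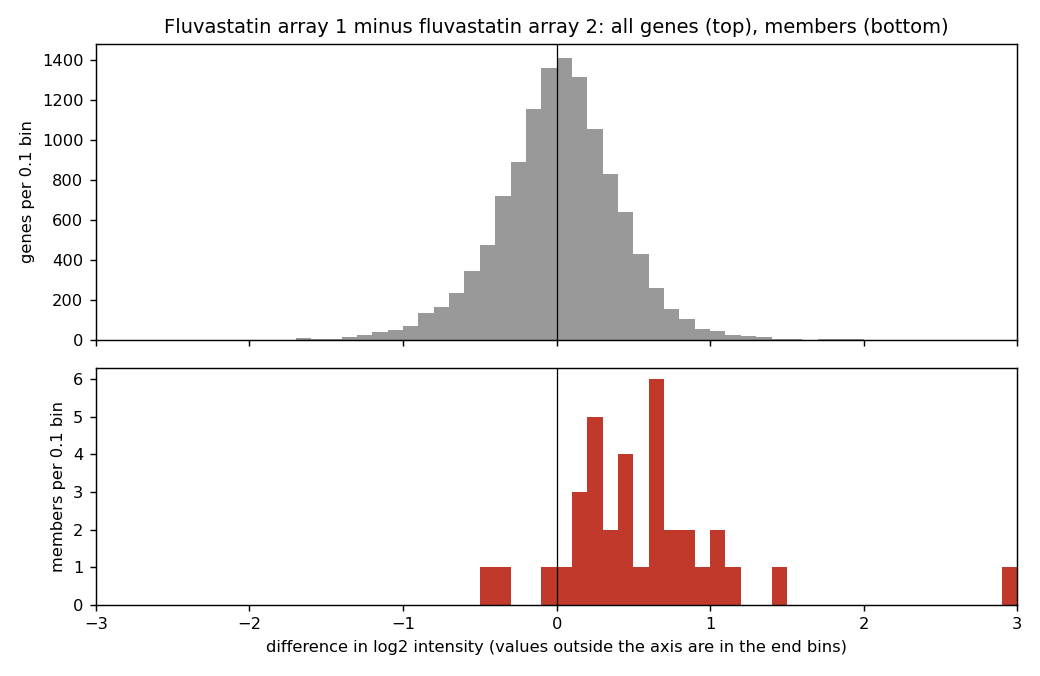
Number of genes per 0.1 bin (y axes) by the log2 intensity of fluvastatin 1 minus that of fluvastatin 2 (x axis), for all 12080 genes (top) and the 35 genes (bottom). All genes centre near 0 (median 0.03), and the 35 have a median of 0.50.

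Among the regulators, neither alpha subunit passed the test. HIF1A, which encodes HIF-1α, was at log2 intensities of 9.57 and 9.46 in controls 1 and 3, 9.49 in fluvastatin 1 and 9.94 in fluvastatin 2. Fluvastatin 1 thus lay within the controls and fluvastatin 2 above them, with a log2 fold change of 0.20 ± 0.20 (SE, adjusted p = 0.529). Its other probes gave 0.12 and 0.21, also with fluvastatin 2 as the highest array. EPAS1, which encodes HIF-2α, was at 8.44 and 8.31 in controls, 10.04 in fluvastatin 1 and 8.59 in fluvastatin 2. It stood 1.66 above the control mean in fluvastatin 1 and 0.22 above it in fluvastatin 2 (log2 fold change 0.94 ± 0.46, adjusted p = 0.199). HIF-α proteins are controlled largely by their stability, which these arrays do not measure.

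The prolyl hydroxylase genes showed no change that passed the test. EGLN1, the main oxygen sensor and itself a HIF target, was at 8.26 and 8.27 in controls and 7.96 and 7.88 with fluvastatin. Both fluvastatin arrays were lower than both controls (all genes 33.7%), by a log2 fold change of -0.35 ± 0.15 (adjusted p = 0.159). EGLN3, a hydroxylase strongly induced by hypoxia in many cells, was close to background on every array, at 4.48, 4.62, 5.03 and 4.92 in the same order. The gene was not above background in controls, and its log2 fold change of 0.42 ± 0.16 did not pass the test (adjusted p = 0.117). With the lowest detected signal as a floor for controls, the fold was 1.04.

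The 4 remaining HIF targets of other roles all rose (all genes 10.5%), and BHLHE40 and NDRG1 had the largest log2 fold changes of the 35 genes. BHLHE40, a transcriptional repressor of the circadian and hypoxia responses, went from 10.00 and 10.11 in controls to 12.16 and 11.56 in fluvastatin 1 and 2. The groups did not overlap, and the rise was 3.50-fold (log2 fold change 1.81 ± 0.23, adjusted p = 0.0127). NDRG1, a cytoplasmic stress protein used as a marker of hypoxia, was at 10.57 and 10.61 in controls and 12.78 and 12.02 with fluvastatin (log2 fold change 1.81 ± 0.27, adjusted p = 0.0154). ANKRD37, an ankyrin repeat protein, had the smallest adjusted p of the 35 genes and nearly equal fluvastatin arrays. It was at 7.88 and 7.81 in controls and 9.54 and 9.32 with fluvastatin, a 3.00-fold rise (log2 fold change 1.59 ± 0.16, adjusted p = 0.00843). KDM3A, a histone H3 lysine demethylase, was at 7.80 and 7.76 in controls and 8.94 and 8.48 with fluvastatin (log2 fold change 0.93 ± 0.20, adjusted p = 0.0340).

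Of the 3 genes for secreted factors, 1 rose, VEGFA (33.3%, beside 10.5% of all genes). VEGFA, the main growth factor for new vessels, was at 8.53 and 8.67 in controls and 9.71 and 9.29 with fluvastatin (log2 fold change 0.90 ± 0.20, adjusted p = 0.0368). The groups did not overlap, and its second probe passed too (1.04, adjusted p = 0.0224). ADM, the vasodilator peptide adrenomedullin and a common marker of hypoxia, was close to equal on all arrays, at 11.43, 11.38, 11.51 and 11.30 (log2 fold change -0.0020 ± 0.16). ANGPTL4, an inhibitor of lipoprotein lipase, was at 7.80 and 7.93 in controls, 10.65 in fluvastatin 1 and 7.75 in fluvastatin 2. Fluvastatin 2 was thus below both controls while fluvastatin 1 was 2.78 above their mean, the widest gap between fluvastatin arrays among the 35 genes, and the log2 fold change of 1.33 ± 0.87 did not pass (adjusted p = 0.323). Its dimmer second probe had 7.44 in fluvastatin 1 and 6.83 in fluvastatin 2, against 6.75 and 6.39 in controls.

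BNIP3 and BNIP3L are mitochondrial outer membrane proteins that mark mitochondria for autophagy, and the second of them rose. BNIP3L was at 9.25 and 9.13 in controls and 10.85 and 10.14 with fluvastatin (log2 fold change 1.31 ± 0.26, adjusted p = 0.0275). Its dimmer second probe gave 0.32 (adjusted p = 0.323) and was higher in fluvastatin 2 (7.99) than in fluvastatin 1 (7.50), so the size and the order of the arrays rest on 1 probe. BNIP3 was at 11.99 and 12.04 in controls and 13.10 and 12.42 with fluvastatin (log2 fold change 0.75 ± 0.25, adjusted p = 0.0941). Both genes were above both controls on each fluvastatin array (all genes 35.9%).

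The collagen prolyl 4-hydroxylase subunits P4HA1 and P4HA2 modify procollagen in the endoplasmic reticulum. P4HA2 rose from 9.99 and 9.97 to 11.56 and 10.71 (log2 fold change 1.15 ± 0.29), with an adjusted p of 0.0495 that only just passed. Its other probes gave 1.14 (adjusted p = 0.0430) and 0.92 (adjusted p = 0.0236). P4HA1 was at 9.12 and 8.99 in controls, 10.38 in fluvastatin 1 and 9.35 in fluvastatin 2 (log2 fold change 0.80 ± 0.34, adjusted p = 0.153). In fluvastatin 1 it stood 1.32 above the control mean and in fluvastatin 2 0.29.

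**Figure D3:**
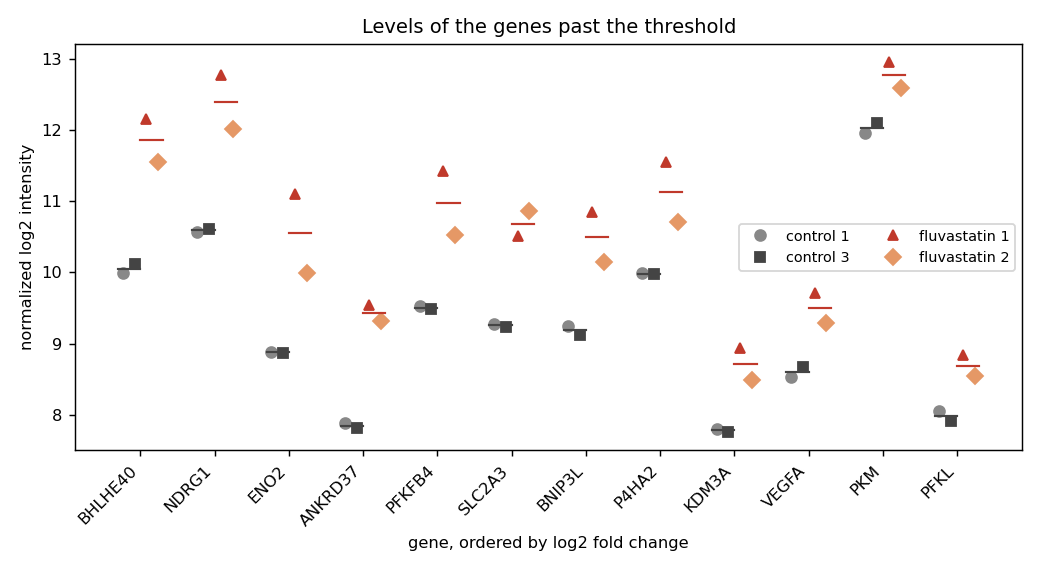
Normalized log2 intensity (y axis) on each array for the 12 genes past the threshold (x axis), ordered by log2 fold change, with short bars at the group means. In each gene both fluvastatin arrays lie above both controls (all genes 35.9%), which picking genes by the test on these same arrays favours. SLC2A3 is the 1 gene in which fluvastatin 2 is the higher.

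At the first step of glucose use, the neuronal-type transporter SLC2A3 rose, and the widely expressed transporter SLC2A1 did not pass the test. SLC2A3 (GLUT3) was at 9.27 and 9.24 in controls, 10.51 in fluvastatin 1 and 10.86 in fluvastatin 2, a 2.69-fold rise (log2 fold change 1.43 ± 0.18, adjusted p = 0.0119). SLC2A1 (GLUT1) was at 12.17, 12.09, 11.99 and 12.02 in the same order. Its log2 fold change was -0.12 ± 0.15 (adjusted p = 0.606), with a 95% interval from -0.50 to 0.25. The changes of these paralogs lay 1.39 apart in fluvastatin 1 and 1.71 apart in fluvastatin 2. Such gaps between paralogs are given as values only, since the smallest p of an exact two-sided permutation test is 0.333 with 2 arrays a group and no other test of them was run.

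The hexokinases, which trap glucose as glucose 6-phosphate, did not pass. HK1 was at 12.41 and 12.59 in controls and 12.97 and 12.86 with fluvastatin (log2 fold change 0.42 ± 0.16, adjusted p = 0.131). HK2, the isoform tied to hypoxia and to tumours, was at 8.23, 8.19, 8.61 and 7.94, with the fluvastatin arrays on either side of the controls (log2 fold change 0.06 ± 0.25, adjusted p = 0.880). Its dimmer second probe gave -0.51 (adjusted p = 0.211).

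Of the 4 genes that control fructose 6-phosphate phosphorylation, 2 rose, PFKFB4 and PFKL (50%, beside 10.5% of all genes). PFKFB4, a bifunctional enzyme that makes and breaks down fructose 2,6-bisphosphate, the activator of phosphofructokinase, was at 9.52 and 9.49 in controls and 11.43 and 10.53 with fluvastatin (log2 fold change 1.47 ± 0.31, adjusted p = 0.0310). Its paralog PFKFB3 was at 10.44 and 10.43 in controls and 10.93 and 10.26 with fluvastatin, again on either side of the controls (log2 fold change 0.16 ± 0.25, adjusted p = 0.685). The liver-type phosphofructokinase PFKL went from 8.05 and 7.91 to 8.83 and 8.54 (log2 fold change 0.71 ± 0.18, adjusted p = 0.0488). The call of PFKL was lost with median scaling over the probes kept (adjusted p = 0.0640) and without a filter on dim probes (adjusted p = 0.0690). It was kept with the authors' values, without background correction and with an offset of 50. The platelet-type PFKP went from 11.52 on both controls to 12.36 and 11.76 (log2 fold change 0.54 ± 0.23, adjusted p = 0.159).

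Along the lower part of glycolysis, from glucose 6-phosphate isomerase to pyruvate kinase, 2 of 10 genes rose (20.0%, beside 10.5% of all genes). The other 8 did not pass. Log2 fold changes of the 10 ran from 0.05 to 1.68, with a median of 0.59. ENO2, the neuron-type enolase, went from 8.89 and 8.87 in controls to 11.11 in fluvastatin 1 and 10.00 in fluvastatin 2, a 3.19-fold rise (log2 fold change 1.68 ± 0.36, adjusted p = 0.0339). The ubiquitous enolase ENO1 was at 14.00, 14.03, 14.46 and 14.05 (log2 fold change 0.24 ± 0.19, adjusted p = 0.412). Pyruvate kinase PKM rose from 11.96 and 12.11 to 12.95 and 12.60 (log2 fold change 0.74 ± 0.19, adjusted p = 0.0491), while its other probes gave 0.79 (adjusted p = 0.0936) and 0.67 (adjusted p = 0.107). The fold changes of the PKM probes were thus alike, and the probe used lay at the edge of the threshold.

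The brain-type aldolase ALDOC was at 7.60 and 7.62 in controls and 9.31 and 8.27 with fluvastatin (log2 fold change 1.18 ± 0.34, adjusted p = 0.0688). The muscle-type aldolase ALDOA was at 12.46, 12.28, 13.09 and 12.84 (log2 fold change 0.60 ± 0.17, adjusted p = 0.0696). The phosphoglycerate kinase PGK1, a classic HIF target, was at 12.28 and 12.21 in controls and 13.27 and 12.65 with fluvastatin (log2 fold change 0.72 ± 0.24, adjusted p = 0.0901). In all 3 genes each fluvastatin array exceeded both controls (all genes 35.9%), though none passed the test. The phosphoglycerate mutase PGAM1 had the smallest change of the lower steps, 0.05 ± 0.15.

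GAPDH, an enzyme of the same pathway that is often used as a reference gene, was at 13.59 and 13.57 in controls, 14.15 in fluvastatin 1 and 13.65 in fluvastatin 2. Its log2 fold change was 0.33 ± 0.21 (adjusted p = 0.314), and its other probes gave 0.61 (adjusted p = 0.184) and 0.62 (adjusted p = 0.0767). Relative to the control mean it was 0.58 higher in fluvastatin 1 and 0.08 higher in fluvastatin 2. The isomerases GPI and TPI1 had log2 fold changes of 0.59 and 0.37, and GPI was 0.99 above the control mean in fluvastatin 1 and 0.18 above it in fluvastatin 2. Fluvastatin 1 was the higher fluvastatin array in 15 of the 15 glycolytic enzymes from hexokinase to lactate dehydrogenase, although dimmer second probes of HK1, HK2, PFKP, TPI1 and PGAM1 were higher in fluvastatin 2.

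At pyruvate, neither gene passed. LDHA, the lactate dehydrogenase subunit that favours lactate, was at 14.47 and 14.41 in controls and 14.70 and 14.50 with fluvastatin (log2 fold change 0.16 ± 0.16, adjusted p = 0.517). Its 95% interval ran from -0.24 to 0.56, and the brightest probe of any array stood at 14.89, so LDHA lay near the top of the scale. PDK1, a kinase that switches off pyruvate dehydrogenase, was near background, at 4.87, 4.53, 5.63 and 5.05 (log2 fold change 0.64 ± 0.25, adjusted p = 0.128).

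The genes around the pathway gave a mixed picture. Of 113 other pathway genes measured, 18 rose (15.9%, beside 10.5% of all genes) and 4 fell (3.54%, beside 9.65%), with a median log2 fold change of 0.24. Among 16 genes of the HIF machinery, 1 (6.25%) passed the test: ARNT, the partner of the alpha subunits. Its levels were 4.48 and 4.64 in controls, not above background, and 5.60 and 5.54 with fluvastatin, all near background. The log2 fold change was 1.01 ± 0.16 (adjusted p = 0.0171). With the lowest detected signal as a floor for controls, the fold was 1.58. Like EGLN3, ARNT entered only through the group in which it was higher. VHL, the ubiquitin ligase subunit that recognises hydroxylated HIF-α, was at 10.00 and 10.08 in controls and 10.72 and 10.53 with fluvastatin (adjusted p = 0.0608; chosen after its values were seen).

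Of 30 other genes known as HIF targets, 8 rose (26.7%, beside 10.5% of all genes), 0 fell (all genes 9.65%) and 22 did not pass. Their median log2 fold change was 0.50, beside 0.01 for all genes. TXNIP, which restrains glucose uptake and binds thioredoxin, had the smallest p and rose by 1.71 ± 0.16 (adjusted p = 0.00734). It was at 10.53 and 10.62 in controls and 12.35 and 12.21 with fluvastatin. The MYC antagonist MXI1 rose by 1.35 (adjusted p = 0.0115) and the transcriptional repressor NFIL3 by 1.11 (adjusted p = 0.0132). Over the 30 genes the median absolute difference between the fluvastatin arrays was 0.32, beside 0.24 for all genes. Fluvastatin 1 was the higher array for 23 of the 30 (all genes 52.8%). At least 2-fold rises over the control mean were seen in 11 genes in fluvastatin 1 (all genes 7.69%) and in 5 in fluvastatin 2 (all genes 4.91%).

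**Figure D4:**
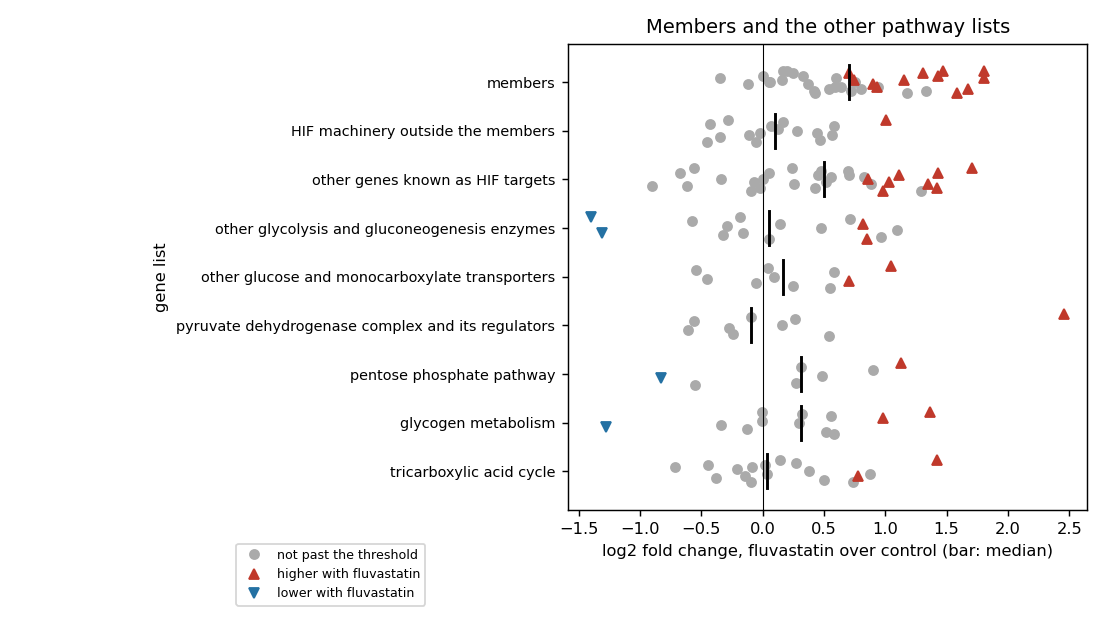
Log2 fold change with fluvastatin (x axis) for each of the 35 genes (members) and for the genes of 8 further lists (y axis), 1 point per gene, with a bar at each list's median. The members' median is 0.71, and those of the other lists run from -0.10 to 0.50.

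Among 15 other enzymes of glycolysis and gluconeogenesis, 2 rose and 2 fell (13.3% each, near the 10.5% and 9.65% of all genes). TIGAR, a fructose bisphosphatase, fell by 1.40, and the phosphopentomutase PGM2 fell by 1.31 (adjusted p = 0.00973 and 0.0112). The glucose 6-phosphatase G6PC3 rose by 0.81 and the muscle-type enolase ENO3 by 0.85 (adjusted p = 0.0264 and 0.0302). Of 10 further glucose and monocarboxylate transporters, SLC2A10 (1.04, adjusted p = 0.0187) and SLC2A6 (0.71, adjusted p = 0.0424) rose, or 20.0%.

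In the smaller lists that follow, the shares that rose are read against the 10.5% of all genes and single out none of the lists. They were 11.1% for pyruvate dehydrogenase and its regulators (1 of 9), 14.3% for the pentose phosphate pathway (1 of 7), 16.7% for glycogen (2 of 12) and 11.8% for the tricarboxylic acid cycle (2 of 17). The shares that fell were 14.3% for the pentose phosphate pathway and 8.33% for glycogen, beside 9.65%. PDK4, a kinase of the complex that is induced in fasting, had the largest fold change of the 113 genes. It was at 5.37 and 5.62 in controls and 8.27 and 7.64 with fluvastatin (log2 fold change 2.46 ± 0.25, adjusted p = 0.00842). In the pentose phosphate pathway PGLS, the lactonase of the oxidative branch, rose by 1.13 and RPIA, an isomerase of the other branch, fell by 0.83 (adjusted p = 0.0137 and 0.0400), of 7 measured. Of 12 glycogen genes the lysosomal glucosidase GAA (1.36, adjusted p = 0.0147) and the branching enzyme GBE1 (0.98, adjusted p = 0.0228) rose. The lists overlap: GBE1 is also in the list of other HIF targets, and each gene counts once among the 113. GYG2, a primer of glycogen synthesis, fell by 1.28 (adjusted p = 0.0177). Of 17 genes of the tricarboxylic acid cycle list the isocitrate dehydrogenase IDH1 (1.42, adjusted p = 0.0153) and the succinate dehydrogenase subunit SDHC (0.78, adjusted p = 0.0470) rose.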

How the data were processed

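Biotin-labelled cRNA was hybridised to Illumina arrays, per the labels' protocols. The deposited table holds 1 intensity per probe and sample, not background-subtracted or scaled as far as its values show, with a p-value of detection in the next column, per the file headers. The authors' second table holds log2 values of nearly equal distribution in each column; the submitters' processing notes name R 3.1.0. All 5 sample columns were mapped, with 0 unused.

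Control 2, the mean of the other controls, was left out. Intensities were processed with neqc (limma 3.58.1, R 4.3.3; offset 16, quantile normalization), probes detected (p under 0.05) on 2 or more arrays entered the fit, and groups were compared by lmFit and eBayes (two-sided, Benjamini-Hochberg over 21986 probes, 2 residual and 3.72 prior degrees of freedom). Only the fit was tested on simulated log2 values, with the same spread of a probe on all arrays. Background correction, normalization, filter and probe choice were outside that test. Symbols came from the platform annotation (30113 of 47231 probes with 1 symbol; 0 changed through RefSeq). Where neither array of a group was above background, a fold with a floor is also given. It was taken against the higher of the probe's own signal and the lowest detected signal on each array. That fold has no interval or test, and the adjusted p belongs to the change without a floor. Array number limits the precision.

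Genes and lists were chosen with earlier results of these data known. Values are given for each gene past the threshold, its paralog, HIF1A, EPAS1, VEGFA, SLC2A1, SLC2A3, HK2, GAPDH, PGK1, PKM, LDHA and PDK1, and for up to 3 genes per further list and direction with the smallest p. Values on each array are also given for the paralogs EGLN1, EGLN3, HK1, ALDOA and ALDOC. ADM and ANGPTL4 were not on the planned list of named genes and are given as well. The alternatives tried were other scaling, background, offset, filter and probe choices, the authors' values, all 5 columns, and each array left out.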

Additional observations from a re-analysis of the deposited data

How the results depend on the processing

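No paired analysis was possible because the independent control arrays (1 and 3) and the fluvastatin arrays (1 and 2) share only the number 1; the fit with a replicate block was therefore not run. In the fits that leave out 1 array, the lone array of a group was assumed to vary like the other group. The count of the 35 genes that rose was 3 to 23 in these fits (9 without fluvastatin 1) and 4 without a filter on dim probes, against 12. It was 9 to 18 in the other settings, and the median of the 35 was 0.37 to 0.93 over all settings. The 18 came from 2 settings. With median scaling over all probes the prior degrees of freedom were infinite, so all genes shared 1 variance. With all 5 columns, control 2 is not independent of the other controls. No gene changed direction where it was called: of the single-gene values recomputed, 327 kept their side of the threshold, 33 lost it and 28 gained it. Median scaling over all probes shifted the median of all genes to 0.22, and 31 of the 35 genes lay above that shift. The scaling over the probes kept was chosen after seeing the data; there P4HA2, PFKL and PKM lost their calls, and the 35 genes' median was 0.58. With all 5 columns 1 of the 35 genes, EGLN1, was called lower.

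Over all probes kept, 1899 rose and 1823 fell. Leaving out 1 array gave 262 to 3417 and 228 to 3563, median scaling over all probes 3353 and 961, and all 5 columns 4500 and 4427. Of the other pathway genes, 18 rose and 4 fell, and 2 to 40 and 0 to 15 did with 1 array left out. The counts were 33 higher with median scaling over all probes and 7 lower with that over the probes kept. They were 30 and 12 with the authors' values, 31 and 12 without background correction, 30 and 12 with an offset of 50, and 38 and 16 with all 5 columns. There were 10 lower when detection on every array was required and 12 with the mean of a gene's probes. The cause was not tested beyond the number of arrays or probes in those settings.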
